A study of Homo sapiens with 9 samples.

Results

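The MAGE genes described here are MAGEA1, MAGEA3, MAGEA4, MAGEA6, MAGEA10, MAGEA12, MAGEB2, MAGEC1, MAGEC2 and MAGED2, which are 10 of the 58735 genes in the deposited tables. The list was chosen by symbol with earlier results of these libraries known, and the members were selected on how their counts differed between the groups, so their differences are given as a description with no test. RNA was sequenced from human hepatoma Huh-7 cells (genotype WT, here control), from Ako-3 cells (Huh-7 with an APOB knock out) and from Mko-3 cells (Huh-7 with an MTTP knock out), with 3 libraries in each group and 9 in all. APOB encodes the structural protein of very low density lipoproteins, and MTTP encodes the lipid transfer protein that loads it. Each knockout is 1 clone raised from a single cell, so a difference from control cannot be told apart from a property of the clone, and both knockouts are set against the same control libraries. Near-confluent cells were kept overnight without serum before RNA extraction. The labels call the libraries biological replicates without saying whether separate cultures were used, so errors rest on the spread between libraries, which may be technical.

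MAGE proteins share a MAGE homology domain that binds RING ubiquitin ligases and directs them to substrates. Type I MAGE genes (the MAGE-A, MAGE-B and MAGE-C subfamilies) sit on the X chromosome, are silenced by promoter methylation in most adult tissues outside the testis, and are switched on in many tumours, hepatocellular carcinoma among them, which is why they are called cancer-testis antigens. Type II members such as MAGED2 are expressed widely in normal tissues, so MAGED2 is not a cancer-testis antigen although it stands in the list.

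The total count per library ranged from 14638727 to 20179760, and the share of mitochondrial counts from 5.52% to 7.40%, which was 7.06% to 7.40% in Ako-3 and at most 6.17% elsewhere. These are bulk samples, so fewer cells of a kind and less RNA per cell cannot be told apart. All 10 hepatocyte markers on the list were above 1 FPKM in at least 1 library of every group, and their summed level ranged from 4896 to 6168 FPKM. None of the 9 germ cell markers was above 1 FPKM in any library, and their summed level did not exceed 0.542 FPKM, with DAZL, PRM1, PRM2, ZPBP and DPPA3 at 0 throughout. The 10 leukocyte, endothelial and fibroblast markers summed to 7.96 to 15.4 FPKM, most of it PECAM1 (9.23 to 10.3 FPKM in control, 12.9 to 13.9 in Ako-3 and 6.15 to 6.75 in Mko-3), and whether that or the mitochondrial share has a part in the MAGE levels was not tested. APOB fell in Ako-3 by 1.36 on the log2 scale (adjusted p = 7.13e-05) and MTTP fell in Mko-3 by 2.88 on that scale, both by the quasi-likelihood F test of edgeR, whose p-values were adjusted by Benjamini and Hochberg's method here and throughout.

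The promoters of the members are shown first, because the gene groups that moved together can be compared there. The 250 bases before the transcription start were taken from RefSeq (GRCh38.p14) for 8 of the 10 members and are printed only as far as they lie before the gene start of the deposited files too, on the gene's own strand and written 5′ to 3′. MAGEA1 and MAGEA10 were not matched. Capitals mark GGATGT on either strand, whose letters GGAT are the core that Ets family transcription factors bind. Where the table has several starts, the one nearest to the start in the deposited files is shown. The set includes the members with the largest differences and, for contrast, MAGEB2 and MAGED2.
MAGEA3, chrX:152698544-152698751, plus strand, also found on the minus strand at MAGEA6 in the window chrX:152769690-152769939, where the first 192 of the printed bases lie before the deposited gene start: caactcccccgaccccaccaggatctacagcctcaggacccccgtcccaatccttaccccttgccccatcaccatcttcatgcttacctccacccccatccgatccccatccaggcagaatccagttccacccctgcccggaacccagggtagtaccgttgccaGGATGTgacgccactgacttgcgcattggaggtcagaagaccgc
MAGEA12, chrX:152733507-152733756, plus strand: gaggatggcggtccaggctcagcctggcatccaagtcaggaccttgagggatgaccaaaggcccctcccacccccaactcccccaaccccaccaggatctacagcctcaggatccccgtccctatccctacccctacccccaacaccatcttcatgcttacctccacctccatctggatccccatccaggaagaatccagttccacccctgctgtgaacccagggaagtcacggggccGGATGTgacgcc
MAGEC2, chrX:142205291-142205540, minus strand: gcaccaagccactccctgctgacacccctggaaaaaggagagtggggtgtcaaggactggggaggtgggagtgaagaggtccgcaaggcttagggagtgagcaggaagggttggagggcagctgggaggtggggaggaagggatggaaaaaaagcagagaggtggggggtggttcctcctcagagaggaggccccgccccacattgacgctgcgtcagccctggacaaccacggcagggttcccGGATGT
MAGEC1, chrX:141903644-141903893, plus strand: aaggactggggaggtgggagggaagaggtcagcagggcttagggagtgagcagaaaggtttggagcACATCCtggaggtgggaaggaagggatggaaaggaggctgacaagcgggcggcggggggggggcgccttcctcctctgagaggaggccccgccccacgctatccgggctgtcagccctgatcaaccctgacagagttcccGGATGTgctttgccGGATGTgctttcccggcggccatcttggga
MAGEB2, chrX:30215313-30215559, plus strand: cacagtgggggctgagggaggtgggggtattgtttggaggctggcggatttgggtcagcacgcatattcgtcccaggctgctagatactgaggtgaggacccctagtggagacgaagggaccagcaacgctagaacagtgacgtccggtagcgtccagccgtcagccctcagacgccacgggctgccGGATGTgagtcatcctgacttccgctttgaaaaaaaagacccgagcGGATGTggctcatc
MAGED2, chrX:54807495-54807598, plus strand: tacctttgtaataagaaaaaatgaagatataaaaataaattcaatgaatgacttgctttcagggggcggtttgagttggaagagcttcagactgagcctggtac

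Over the whole windows of 250 bases, GGATGT was found on the gene's own strand in 7 of the 8 members with a window, all except MAGED2, and either strand holds it in 8.43% of the 35116 RefSeq promoter windows of this length. The longer CCGGATGT, which contains it, was present in MAGEA4, MAGEA12, MAGEB2, MAGEC1 and MAGEC2, against 0.592% of all windows. Both motifs were counted after the windows had been read, so these counts describe the sequences and say nothing of what binds there. The members are related genes, and the windows of MAGEA3 and MAGEA6 are identical. Their windows are therefore not separate cases to set beside the share over all windows. The motif was held by members with large differences and by MAGEB2, whose difference was small, alike. CpG dinucleotides, the sites at which promoters are methylated, numbered 15 in MAGEA3, MAGEA6 and MAGEB2, 11 in MAGEC1, 6 in MAGEC2 and MAGED2 and 5 in MAGEA12, beside a median of 11 over all windows. No methylation was measured in these cells.

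MAGEA3 and MAGEA6 are hard to count apart. Their RefSeq windows were identical over all 300 bases, which run past the start, and their canonical GENCODE transcripts, each 1682 bases long, were 98.6% identical. Of all 150-base windows of either transcript, the length of 1 read, 30.1% were found unchanged in the other gene and in no other gene. For MAGEA12, MAGEB2, MAGEC1, MAGEC2 and MAGED2 the share found in another gene was 0, so exact sharing of single reads touches only the MAGEA3 and MAGEA6 pair among the members that were abundant. MAGEA6 took 36.0% to 42.8% of the counts of the pair in the control libraries, 41.2% to 43.1% in Ako-3 and 39.3% to 40.5% in Mko-3, and these ranges overlap between control and each knockout. How reads that match both genes were assigned is not given in the sources used here, so the sum of the pair is given beside each gene.

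**Figure D1:**
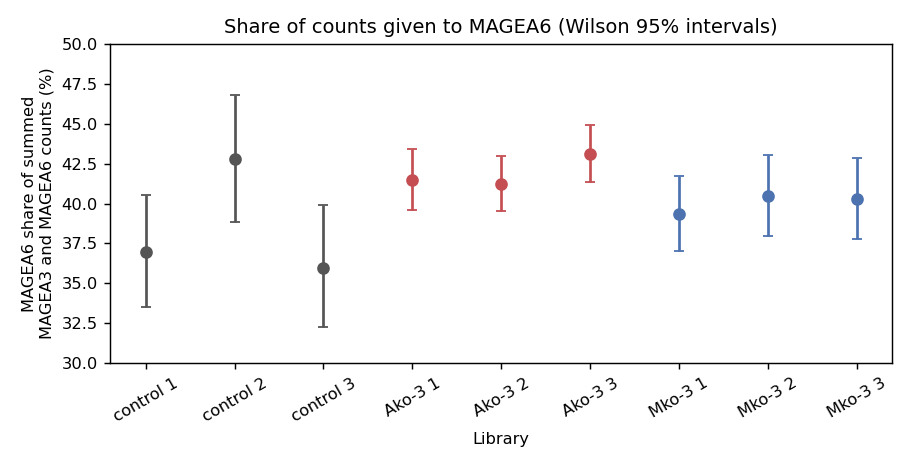
The share of the summed MAGEA3 and MAGEA6 counts that was given to MAGEA6, in percent, is plotted for each of the 9 libraries with Wilson 95% intervals, which cover counting error only (control grey, Ako-3 red, Mko-3 blue; the axis does not start at 0). The split stayed between 36.0% and 43.1% in all libraries.

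The MAGE-A genes MAGEA3, MAGEA6 and MAGEA12 lie within 71.0 kb of each other between starts on chromosome X (hg38), in the order MAGEA3, MAGEA12, MAGEA6. MAGEA3, a type I protein that binds the ubiquitin ligase TRIM28, was read 459, 340 and 386 times in the control libraries, 1482, 1859 and 1653 times in Ako-3 and 1010, 846 and 839 times in Mko-3. Per length and depth these are 13.7, 12.5 and 11.8 FPKM in control, 50.0, 52.2 and 53.0 FPKM in Ako-3 and 31.7, 26.7 and 30.5 FPKM in Mko-3. All Ako-3 libraries were highest, all control libraries lowest, and no groups overlapped. By the edgeR fit, MAGEA3 differed from control by 2.03 ± 0.08 (SE, 3 libraries against 3) on the log2 scale in Ako-3 and by 1.21 ± 0.09 in Mko-3.

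MAGEA6, which also binds TRIM28, stood at 7.68, 8.93 and 6.39 FPKM in control, 34.0, 35.1 and 38.5 FPKM in Ako-3 and 19.7, 17.4 and 19.7 FPKM in Mko-3. The order of the groups was that of MAGEA3, again with no overlap. On the log2 scale the fitted change of MAGEA6 was 2.23 ± 0.10 in Ako-3 and 1.30 ± 0.11 in Mko-3. For the sum of MAGEA3 and MAGEA6 the level was 20.3 ± 1.80 FPKM (SD, n = 3) in control, 87.6 ± 3.77 FPKM in Ako-3 and 48.6 ± 3.91 FPKM in Mko-3. The summed counts do not depend on the split if every shared read was given to a single gene, which is not known. Fitted as 1 gene, this sum changed on the log2 scale by 2.11 ± 0.08 in Ako-3 and by 1.25 ± 0.08 in Mko-3.

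MAGEA12, between the pair, was at 8.54, 7.11 and 7.12 FPKM in control, 21.0, 20.6 and 19.8 FPKM in Ako-3 and 15.8, 13.7 and 16.7 FPKM in Mko-3. Its groups did not overlap, and the step from Mko-3 to Ako-3 was smaller than for MAGEA3. For MAGEA12 the fit gave log2 changes of 1.42 ± 0.09 in Ako-3 and 1.00 ± 0.11 in Mko-3, the second at the threshold of 1. It ranged from 0.96 to 1.10 when single libraries were left out and fell under 1 in 4 of 6 such fits. A noncoding gene, CSAG4, overlaps MAGEA12 in the files.

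**Figure D2:**
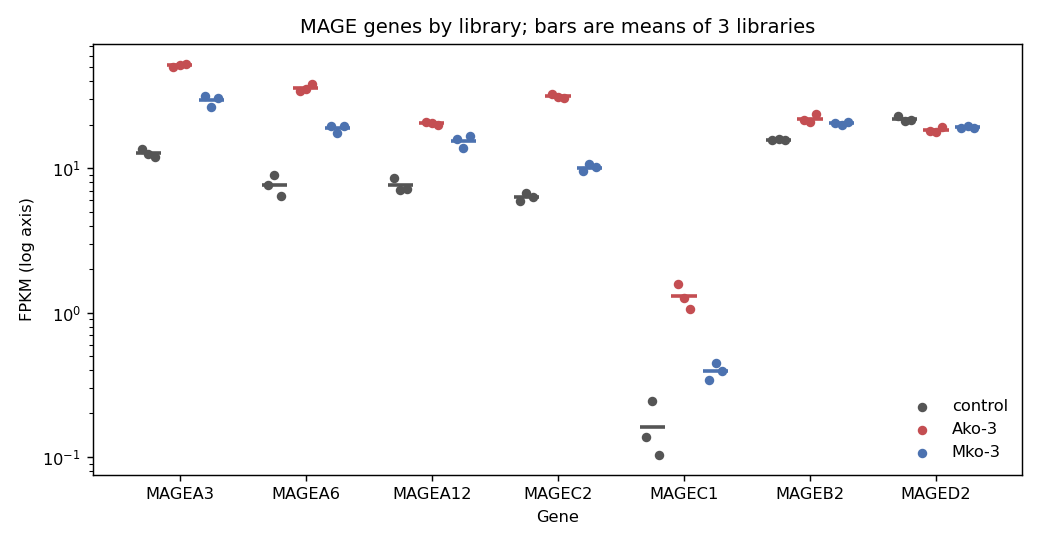
FPKM on a log axis for the 7 members with enough counts to be tested, with 1 point per library (control grey, Ako-3 red, Mko-3 blue) and a bar at the mean of 3 libraries. Control lies lowest for MAGEA3, MAGEA6, MAGEA12, MAGEC1 and MAGEC2, Ako-3 lies highest for these 5 genes, and MAGED2 is highest in control.

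The MAGE-C genes separated the knockouts most. MAGEC2, a type I protein that also binds TRIM28, was read 222, 203 and 229 times in control, 1083, 1234 and 1070 times in Ako-3 and 338, 374 and 312 times in Mko-3, which is 5.93, 6.68 and 6.31 FPKM, 32.8, 31.1 and 30.8 FPKM, and 9.53, 10.6 and 10.2 FPKM. The Mko-3 libraries all lay above control and far below Ako-3. On the log2 scale MAGEC2 changed by 2.32 ± 0.09 in Ako-3, a fold of 5.00, and 0.67 ± 0.11 in Mko-3, under the threshold. Between the knockouts it was -1.65 ± 0.07 for Mko-3 against Ako-3.

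MAGEC1, its neighbour on chromosome X, was much scarcer, with 11, 16 and 8 counts in control, 112, 108 and 79 in Ako-3 and 26, 34 and 26 in Mko-3. In FPKM, control ranged from 0.103 to 0.245, Ako-3 from 1.06 to 1.58 and Mko-3 from 0.342 to 0.449. The groups did not overlap, but the control counts are low, and the SE is accordingly wide. Fitted log2 changes of MAGEC1 were 3.03 ± 0.29 in Ako-3 and 1.30 ± 0.37 in Mko-3, and -1.72 ± 0.21 for Mko-3 against Ako-3.

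MAGEB2, a type I member from the short arm of chromosome X, was already at 15.7, 16.0 and 15.5 FPKM in control, and reached 21.4, 20.9 and 23.8 FPKM in Ako-3 and 20.6, 19.8 and 20.8 FPKM in Mko-3. Every knockout library was above every control library, while the lowest Ako-3 library lay just above the highest Mko-3 library. As log2 changes, the differences of MAGEB2 were 0.48 ± 0.09 in Ako-3 and 0.36 ± 0.08 in Mko-3. MAGED2, the widely expressed type II member, which has a part in salt transport in the kidney, was at 22.9, 21.2 and 21.7 FPKM in control, 18.1, 17.7 and 19.1 FPKM in Ako-3 and 19.0, 19.5 and 19.1 FPKM in Mko-3. It moved the other way, with all knockout libraries below control, and by little (log2 fold change of MAGED2 -0.27 ± 0.07 in Ako-3 and -0.21 ± 0.07 in Mko-3).

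MAGEA1, MAGEA4 and MAGEA10 had too few counts to be tested in any comparison. MAGEA1 had 0 counts in control and in Ako-3 and 1 count in Mko-3, all at or under the floor of 3 counts over a group, so no fold is given. MAGEA4 had 1 count in control, 1 in Ako-3 and 12 in Mko-3, of which the single libraries held from 1 to 6. Per summed depth, MAGEA4 in Mko-3 was 11.7 times control, with an exact 95% counting interval from 1.72 to 498. MAGEA10 had 6 counts in control, 17 in Ako-3 and 4 in Mko-3, and its ratio of Ako-3 to control was 2.56, with an interval from 0.965 to 7.94 that includes no difference. These intervals cover counting error alone, and 10 of the 17 counts of MAGEA10 in Ako-3 came from 1 library.

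Of the 7 members that passed the filter on low counts, 5 (MAGEA3, MAGEA6, MAGEA12, MAGEC1 and MAGEC2) met the thresholds of the study (a log2 change of 1 or more in size and an adjusted p no higher than 0.05) in Ako-3 against control, all higher, whereas 3.52% of the 15787 genes tested were called higher and 5.00% lower. In Mko-3 against control 4 members (MAGEA3, MAGEA6, MAGEA12 and MAGEC1) passed, all higher, beside 3.82% of 15745 genes called higher and 7.22% lower. For Mko-3 against Ako-3, MAGEC1 and MAGEC2 were lower and no other member passed, while 2.26% of 15528 genes were called higher and 3.47% lower. The members had been named with these values in view, so their counts are not support for anything. DESeq2 called the same members in each comparison. The median log2 fold change over the 7 tested members was 2.03 in Ako-3 and 1.00 in Mko-3, against -0.01 and -0.01 over all genes tested.

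**Figure D3:**
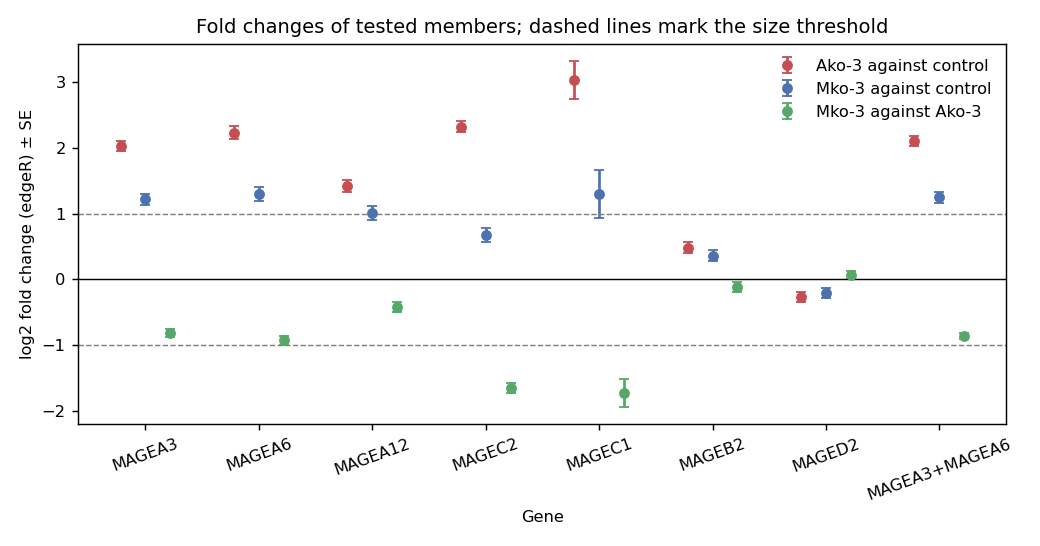
The log2 fold change from edgeR with its SE (vertical axis) for the 7 tested members and for the sum of MAGEA3 and MAGEA6, in the 3 comparisons. The dashed lines mark the size threshold of 1 in either direction. MAGEC1 and MAGEC2 alone pass it between the knockouts, and MAGEB2 and MAGED2 stay inside it in every comparison.

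Summed over the 10 members, the level per length was 72.1 ± 2.83 FPKM (SD, n = 3) in control, 181 ± 4.15 FPKM in Ako-3 and 114 ± 5.13 FPKM in Mko-3. The make-up of that sum differed too. MAGED2 was the most abundant member in control, with 30.4% of the sum, followed by MAGEB2 with 21.9% and MAGEA3 with 17.5%. In Ako-3 the leading member was MAGEA3 with 28.5%, then MAGEA6 with 19.8% and MAGEC2 with 17.4%, while MAGED2 gave 10.1%. In Mko-3 MAGEA3 led with 25.9%, MAGEC2 held 8.87%, close to its 8.76% in control, and MAGED2 held 16.8%. Ranked by FPKM, the neighbours that overlapped in range among the abundant members were MAGEA6 and MAGEA12 in control, MAGEB2 and MAGEA12 in Ako-3, and MAGED2 and MAGEA6 in Mko-3.

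**Figure D4:**
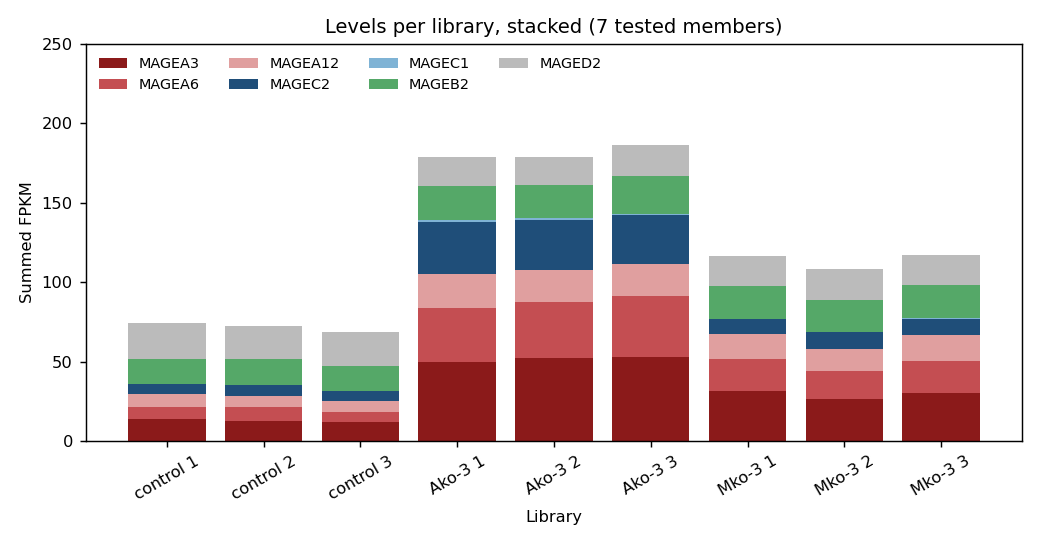
FPKM of the 7 tested members stacked for each of the 9 libraries, with the axis from 0. The summed height was 69.0 to 74.6 FPKM in control, 179 to 186 FPKM in Ako-3 and 108 to 117 FPKM in Mko-3 over all 10 members, of which the 3 not drawn are too small to see.

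The other MAGE genes that were listed were mostly silent. Of these 27 listed genes, which may not be the whole family, 10 had 0 counts in all libraries and 19 never exceeded 3 counts in any library. Among the 17 type I genes outside the members, MAGEA2B alone passed the filter, with 16, 14 and 20 counts in control, 61, 90 and 6 in Ako-3 and 54, 14 and 26 in Mko-3. Its libraries spread widely, with the Ako-3 range covering that of control. It was called in no comparison by edgeR (0 of 1 tested, also 0 by DESeq2, with unadjusted p under 0.05 only in Mko-3 against control), and it is a near-identical copy of MAGEA2, so its counts are uncertain. Of the type II genes, MAGEF1 had 747 to 1018 counts and NSMCE3, a subunit of the SMC5/6 complex, had 196 to 296, and neither was called. MAGED1 had 5, 4 and 12 counts in control, 12, 21 and 18 in Ako-3 and 0, 1 and 2 in Mko-3. Its log2 fold change in Ako-3 was 1.21 ± 0.46 (edgeR adjusted p = 0.0318). MAGED1 passed the filter there only through its Ako-3 libraries, so it could not have been called lower. The call was lost with DESeq2 (adjusted p = 0.124) and without control replicate 1 (log2 change 0.97), control replicate 2 (1.02), Ako-3 replicate 2 (1.12) or Ako-3 replicate 3 (1.15), with adjusted p from 0.0915 to 0.126. With Mko-3 at the floor, the ratio of Ako-3 to Mko-3 for MAGED1 was 15.8, with an exact 95% counting interval from 5.13 to 79.4.

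Outside the MAGE family, 127 of 133 other cancer-testis genes were matched, and 21 were tested in Ako-3 against control. Of these, 4 were called higher and 0 lower by edgeR (13 at an unadjusted p under 0.05 in either direction), and DESeq2 called 6 higher and 0 lower. Over all genes tested, 3.52% were called higher and 5.00% lower, and 8766 of 15787 were at an unadjusted p under 0.05 by edgeR. The list's median log2 change was 0.36. Genes low in control, such as SAGE1 and SSX1 below, passed the filter only with their Ako-3 counts, so they could not have been called lower. SSX1, a transcriptional corepressor, had 13, 16 and 5 counts in control, 74, 116 and 109 in Ako-3 and 46, 44 and 36 in Mko-3, so all groups were apart and in the order of MAGEC1. By edgeR, the log2 change of SSX1 was 3.06 ± 0.30 in Ako-3 (adjusted p = 7.53e-08) and 1.89 ± 0.36 in Mko-3 (adjusted p = 0.000149). SAGE1, a sarcoma antigen on chromosome X, had 3, 0 and 3 counts in control, 61, 38 and 59 in Ako-3 and 1, 1 and 2 in Mko-3. Its ratio of Ako-3 to control was 23.8, with an exact 95% counting interval from 10.7 to 65.9, given because control held 6 counts in all. The other called genes, CSAG1 and CSAG3, lie in the MAGE-A cluster.

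In Mko-3 against control, SSX1 was the 1 gene called higher among 17 tested cancer-testis genes, with 0 lower by edgeR and by DESeq2. SSX1 passed the filter there only with its Mko-3 libraries, where it was high, so it could not have been called lower. By edgeR 9 of the 17 were at an unadjusted p under 0.05, beside 9302 of 15745 genes tested. Over all genes tested, 3.82% were called higher and 7.22% lower. The list's median log2 fold change was 0.13. Between the knockouts, 4 of 19 were lower in Mko-3 and 0 higher by edgeR (DESeq2 called 5 lower and 1 higher). Over all genes tested in that comparison, 3.47% were lower and 2.26% higher by edgeR. The 4 lower genes were SAGE1, SSX1, KDM5B (log2 fold change -1.01 ± 0.06, adjusted p = 2.73e-23 by edgeR) and NOL4, the last named after its values were seen. SAGE1 and NOL4 passed the filter there only through Ako-3, where they were high. KDM5B is a histone H3 lysine demethylase that is expressed in many normal tissues as well, and its log2 change was between -0.99 and -0.96, short of the size threshold, without Ako-3 replicate 1, Ako-3 replicate 2, Mko-3 replicate 2 or Mko-3 replicate 3.

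The genes around the cluster were compared by distance. In Ako-3, CSAG1 rose by 1.02 ± 0.14 on the log2 scale (edgeR adjusted p = 3.65e-06). CSAG3, a related gene of the cluster, rose by 1.16 ± 0.15 (edgeR adjusted p = 1.68e-06). The GABA receptor subunit GABRA3 rose by 2.27 ± 0.21 (edgeR adjusted p = 2.24e-08). GABRA3 had 30, 27 and 57 counts in control, 191, 213 and 164 in Ako-3 and 42, 51 and 40 in Mko-3. Its Mko-3 libraries lay within the control range, unlike those of MAGEA3, MAGEA6 and MAGEA12, and the log2 fold change of Mko-3 against Ako-3 was -2.02 ± 0.17 (edgeR adjusted p = 1.66e-17). CSAG4 rose from 2, 3 and 6 counts to 18, 19 and 15 in Ako-3 (edgeR log2 fold change 2.16 ± 0.50, adjusted p = 0.00116), but it overlaps MAGEA12, and reads of overlapping genes cannot be told apart here. CSAG4 also passed the filter only through Ako-3, where it was high, so it could not have been called lower. PNMA3 had 25, 17 and 13 counts in control, 0 in all Ako-3 libraries and 5, 7 and 8 in Mko-3. Against the floor of 3 counts over the group, PNMA3 was at least 20.3-fold lower in Ako-3. CSAG1 was just short of the size threshold without control replicate 3 (0.94) or Ako-3 replicate 2 (log2 change 0.9992).

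Of the 117 genes within 500 kb of a member, 24 were tested in Ako-3, of which 4 were called higher and 2 lower. Their median log2 change was 0.36. Over all 466 tested X chromosome genes outside the members, these 24 included, 25 were higher, 17 lower and the median was -0.02. In Mko-3 22 were tested, 1 was higher, 2 were lower, and the median was 0.18. Of the 465 tested X chromosome genes outside the members, these 22 included, 27 were higher, 20 lower and the median was 0.08. Over all genes tested, 3.52% in Ako-3 and 3.82% in Mko-3 were called higher, and 5.00% and 7.22% lower. The lower genes in Ako-3 were PNMA3 and GK-AS1 (log2 fold change -1.15 ± 0.30, adjusted p = 0.00345 by edgeR), the latter overlapping GK. In that comparison PNMA3 passed the filter only through control, and CSAG4, among the higher genes, only through Ako-3, so each could be called in 1 direction alone. CCNQ, a cyclin, was the 1 higher in Mko-3 (1.04 ± 0.13, edgeR adjusted p = 5.59e-07), and the lower ones were PNMA3 (-1.41 ± 0.44, edgeR adjusted p = 0.00982) and AC112496.1, which overlaps GK (-1.38 ± 0.36, edgeR adjusted p = 0.00263). PNMA3 and AC112496.1 passed the filter there only through control, where they were high, so neither could have been called higher. Without control replicate 3, GK-AS1 was at -0.85 and CCNQ at 0.96 on the log2 scale, and without control replicate 1 CCNQ was at 0.97, all short of the size threshold. The call of PNMA3 in Mko-3 was lost without control replicate 1 (adjusted p = 0.0584), without Mko-3 replicate 1 (adjusted p = 0.0566) and with DESeq2 (adjusted p = 0.0623).

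**Figure D5:**
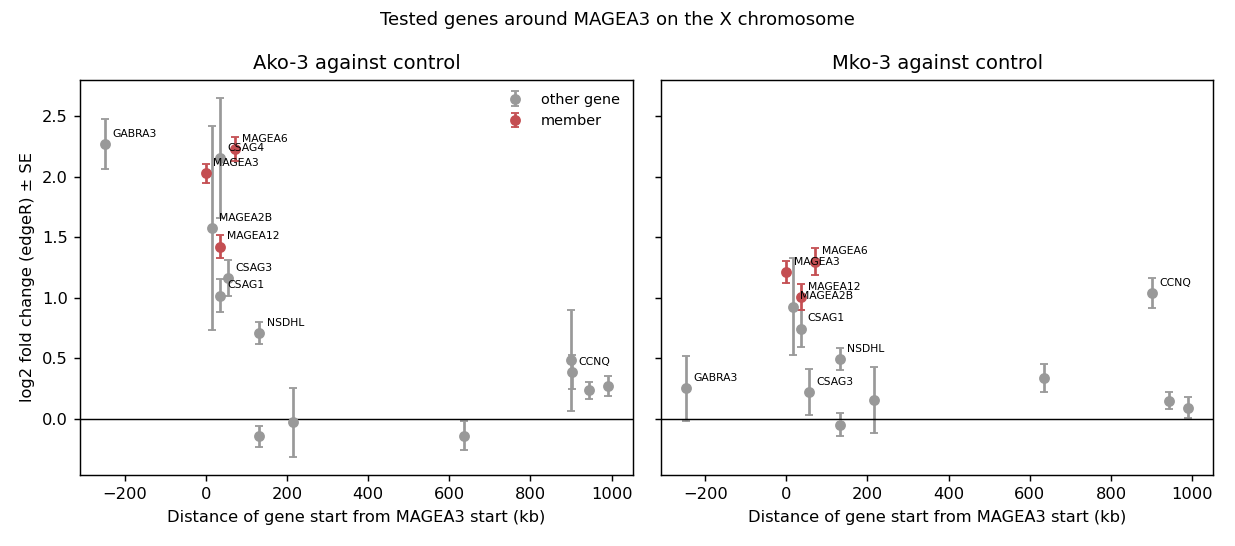
The log2 fold change from edgeR with its SE for tested genes around the start of MAGEA3, against the distance between gene starts in kb, for each knockout against control (members red, other genes grey). PNMA3 is not drawn because Ako-3 had 0 counts. MAGEA3, MAGEA6 and MAGEA12 are among the highest points in both panels, and GABRA3 stands at 2.27 in Ako-3 and at 0.25 in Mko-3.

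The listed partners and substrates of MAGE proteins and the listed regulators of their promoters were counted beside all genes tested. Of these, 8766 of 15787 in Ako-3 and 9302 of 15745 in Mko-3 were at an unadjusted p under 0.05 by edgeR. The shares called higher were 3.52% and 3.82%, and those called lower 5.00% and 7.22%. In Mko-3 against Ako-3, 7492 of 15528 were at an unadjusted p under 0.05 by edgeR. Among 38 tested partners and substrates, 2 were called higher in Ako-3 and 0 lower by edgeR and DESeq2 (26 at an unadjusted p under 0.05), and in Mko-3 3 were higher and 1 lower. The stress-inducible chaperones HSPA1B and HSPA1A rose in both knockouts. HSPA1B went from 122, 71 and 104 counts in control to 337, 407 and 362 in Ako-3 and 406, 443 and 400 in Mko-3 (1.85 ± 0.13 and 2.11 ± 0.13 on the log2 scale, edgeR adjusted p = 5.11e-10 and 2.42e-11). HSPA1A rose by 1.30 ± 0.21 and 1.64 ± 0.20 on that scale (edgeR adjusted p = 3.34e-05 and 4.97e-07). These 2 genes are near-identical copies and are uncertain one by one. The others called in Mko-3 were CCNE1, a cyclin (1.03 ± 0.13, edgeR adjusted p = 1.55e-06), and, lower, FBP1, a gluconeogenic enzyme, which was named after its values were seen. FBP1 was not called by DESeq2 (adjusted p = 0.0797) nor without control replicate 3, Mko-3 replicate 2 or Mko-3 replicate 3 (adjusted p from 0.0602 to 0.111). CCNE1 was short of the size threshold without control replicate 1 (0.97), control replicate 3 (0.9979) or Mko-3 replicate 2 (0.89). In Mko-3 against Ako-3 0 partners were called by edgeR and by DESeq2, with 21 at an unadjusted p under 0.05.

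Of 42 genes of DNA methylation and H3K9 silencing, all tested, 1 was called higher in each knockout. UHRF1, which recruits the maintenance methyltransferase to replicated DNA, had 286, 431 and 250 counts in control, 1267, 1566 and 1462 in Ako-3 and 1599, 1654 and 1362 in Mko-3. All knockout libraries lay above control, while the control libraries differed among themselves. By edgeR, the log2 change of UHRF1 was 2.08 ± 0.28 in Ako-3 (adjusted p = 0.00318) and 2.25 ± 0.29 in Mko-3 (adjusted p = 0.00245). DNMT3L, a cofactor of de novo methylation, fell in Mko-3 by 1.04 on the log2 scale (edgeR adjusted p = 0.0157), from 42, 20 and 29 counts in control to 20, 11 and 12. Per depth the groups did not overlap (1.37 to 2.35 CPM in control, 0.622 to 1.12 CPM in Mko-3), and the call of DNMT3L was lost with DESeq2 (adjusted p = 0.0736) and without control replicate 1, Mko-3 replicate 2 or Mko-3 replicate 3 (adjusted p from 0.0555 to 0.104). The list's median log2 fold change was 0.22 in Ako-3 and 0.25 in Mko-3. Among 24 tested Ets and Sp factors, EHF, an epithelial Ets factor, was the 1 called, higher in both knockouts, with 117, 51 and 93 counts in control, 215, 208 and 184 in Ako-3 and 290, 226 and 221 in Mko-3 (log2 changes 1.19 ± 0.18 and 1.53 ± 0.17, edgeR adjusted p = 1.81e-05 and 3.40e-07). Without control replicate 2, EHF in Ako-3 was at 0.99, short of the size threshold. Most of these 24 factors lay below control, 16 in Ako-3 and 14 in Mko-3, with median log2 changes of -0.17 and -0.06. Between the knockouts 0 genes of either list were called by edgeR and by DESeq2. At an unadjusted p under 0.05 by edgeR were 16 of 42 and 16 of 24, beside 7492 of 15528 genes tested. Whether these levels bear on the MAGE genes was not tested.

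The genes whose log2 CPM over the 9 libraries was most like that of MAGEC2, among the 16169 genes that passed the filter over all libraries and leaving out the MAGE family, were MYORG, ITIH2, ST6GAL1, GLDC and CES3, with Pearson r from 0.992 to 0.994. ITIH2, a plasma protein that stabilises hyaluronan, ran at 315.8 ± 53.0 CPM (SD, n = 3) in control, 1017 ± 10.1 CPM in Ako-3 and 436 ± 28.4 CPM in Mko-3. For the sum of MAGEA3 and MAGEA6 they were AGPAT3, WIPI2, SOX12, NAIF1 and MT-CYB, with r from 0.989 to 0.998. AGPAT3, an acyltransferase of phospholipid synthesis, was at 118 ± 1.23 CPM in control, 157 ± 2.20 CPM in Ako-3 and 141 ± 3.15 CPM in Mko-3. The 9 points of each correlation fall into 3 groups that share a clone, so r mainly orders the group means.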

How the data were processed

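Poly(A) RNA was sequenced as paired reads from 3 libraries per group. Per the study's methods, the authors aligned reads to hg38 with HISAT2 2.0.5 and counted them on genes with featureCounts; the submitters' processing notes also name other builds. The authors deposited raw counts and FPKM for 58735 genes; the library size in the FPKM and the strand setting are not given in the sources used here. Members and lists were chosen with earlier results of these data known. Per comparison, edgeR 4.0.16 in R 4.3.3 was run on the deposited counts of 6 libraries (TMM scaling, filterByExpr with a minimum of 10 counts, quasi-likelihood F test with robust dispersions across all genes, Benjamini-Hochberg adjustment). The SE of a log2 change was the change, without its sign, divided by the square root of F. It rests on a dispersion moderated across genes, not on that gene's libraries alone. A gene was called where its log2 change was 1 or more in size and its adjusted p no higher than 0.05. DESeq2 1.42.0, RLE factors, no filter, 1 fit of all libraries, a replicate block and left-out libraries were alternatives. The script was tested on simulated counts. Named genes outside the members were expressed genes of the MAGE lists. The 3 called genes of smallest adjusted p per list and comparison were named too, as were called genes within 500 kb. So were the 5 genes most alike per target. Shared stretches came from GENCODE release 44. In 27 entries a spreadsheet had turned the name into a date.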

Additional observations from a re-analysis of the deposited data

Results flagged for a closer look

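The knockouts differed from each other in several genes, by edgeR's quasi-likelihood test of Mko-3 against Ako-3 across all genes. The members chosen on these values were MAGEC1, with a log2 fold change of -1.72, and MAGEC2, with -1.65. Outside the members, KDM5B was at -1.01, SSX1 at -1.17 and GABRA3, which lies within 500 kb of MAGEA3, at -2.02. SAGE1 had 158 counts over the Ako-3 libraries and 4 over Mko-3, and MAGED1 had 51 and 3. In every one of these genes all 3 Mko-3 libraries were below all 3 Ako-3 libraries.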

How the results depend on the processing

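All 24 log2 fold changes of the tested members and of the summed pair kept their direction under the 11 alternatives, and all except MAGEA12 in Mko-3 kept their side of the threshold. MAGEA12 in Mko-3 was 1.00 and fell under 1 without control replicate 2 (0.97), control replicate 3 (0.96), Mko-3 replicate 1 (0.99) or Mko-3 replicate 3 (0.96). The number of listed genes called in Mko-3 against Ako-3 was 5. It was 9 with no filter on low counts, and 5 to 8 with single libraries left out, the highest without Mko-3 replicate 1. Replicate numbers did not pair the libraries, since deviations of same-numbered libraries correlated between -0.07 and 0.06. With a replicate block, 5, 4 and 2 members were called in the 3 comparisons, and the sum of MAGEA3 and MAGEA6 was at 2.11, 1.25 and -0.86, and no call of a member changed. No called gene named in the text changed direction under any alternative. Calls lost with single libraries left out or with DESeq2 are given beside the genes. Low counts limit MAGEA1, MAGEA4, MAGEA10 and MAGEC1 in control.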
